A study of Mus musculus with 8 samples.

Results

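Genes of translation initiation factors were followed in the right ventricle of mice with and without the receptor Fpr2, at rest and under pressure load. The set was taken as every gene of the deposited table whose symbol starts with Eif and a digit from 1 to 6. The 4 Eif2ak kinase genes, whose names also match, were left out, and 0 matching genes lay on chromosome Y. This gave 59 genes of the 30495 in the table, of which 8 are processed pseudogenes. After removal of genes with too few counts 54 of the 59 were tested, 5 of them pseudogenes. The 5 genes not tested were Eif4a3l1, Eif4a3l2, Eif5al3-ps, Eif2s3x-ps1 and Eif3s6-ps3, and none of them passed 0.15 CPM (counts scaled to library size) in any library.

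Initiation starts when eIF2, loaded with GTP, brings the initiator methionine tRNA to the small ribosomal subunit, where eIF3, eIF1, eIF1A and eIF5 keep it ready to scan for a start codon. The mRNA is brought in by eIF4F, which joins the cap-binding protein eIF4E, the scaffold eIF4G and the helicase eIF4A. Binding proteins block eIF4E until the kinase mTORC1 phosphorylates them, and stress kinases that phosphorylate eIF2 stop its recycling by eIF2B. In heart muscle, growth under load depends on protein synthesis that is controlled in large part at this step.

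Poly(A) RNA of right ventricles was sequenced in bulk from female mice aged 8 weeks that were wild type (WT) or Fpr2-KO, the latter without formyl peptide receptor 2. Control mice breathed normal oxygen for 21 days. SuHx mice spent 3 weeks in hypoxia and were injected with 20.0 mg/kg of Sugen, which blocks VEGF receptors, a common way to load the right ventricle. The 4 groups are WT control, WT SuHx, Fpr2-KO control and Fpr2-KO SuHx, each with 2 libraries. Libraries are called below by the number in their column of the deposited table (1 and 2, 1 and 3, 2 and 3, and 2 and 3 in that order). The labels name neither a promoter nor a cell type for the knockout, and a separate label of 3 Fpr2-KO samples names other Fpr genes. Fpr2 was counted 12 to 23 times in the 4 WT libraries and 0 times in the 4 Fpr2-KO libraries.

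Libraries held 67965311 to 76292772 counts. The summed level of 8 ventricular muscle markers was 30188 and 30605 CPM in WT control, 43336 and 44955 in WT SuHx, 32657 and 41246 in Fpr2-KO control and 36175 and 38765 in Fpr2-KO SuHx. Of the 8, 3 rose with SuHx in WT and, over both genotypes, 4 rose and 1 fell. Library Fpr2-KO SuHx 2 stood apart with 2565 CPM of 5 atrial markers, against 25.4 to 311 in the other 7. Summed markers of endothelium were 432 to 516 CPM in the 4 control libraries and 557 to 789 in the 4 SuHx libraries, and 4 of 5 rose with SuHx over both genotypes. Those of mural cells were 626 to 778 in control and 921 to 1061 in SuHx, with 3 of 5 higher. Those of macrophages were 112 to 166 in control and 174 to 226 in SuHx, with 4 of 6 higher. Of 6 fibroblast markers, summed at 870.1 to 1113 CPM, 3 rose and 2 fell, and of 6 lymphocyte markers, at 0.339 to 4.71 CPM, 3 rose. None of the markers in these lists was at 0 in every library. The part of these cell types in the results below was not tested, and in whole tissue fewer cells of a type cannot be told apart from less RNA per cell.

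SuHx was accompanied by lower levels of most initiation factor genes and by a higher level of Eif4e. In WT, 23 of the 54 tested genes fell and 1, Eif4e, rose, while 20.5% of all 19083 tested genes were called, 9.63% as lower and 10.9% as higher. In Fpr2-KO, 12 fell and 1, again Eif4e, rose, while 10.7% of all genes were called, 5.75% as lower and 4.93% as higher. A gene is called where its adjusted p is under 0.05 in edgeR's quasi-likelihood test with Benjamini-Hochberg adjustment over all tested genes. Averaged over both genotypes, 31 fell and 1 rose, against 29.6% of all genes called, 14.1% as lower and 15.5% as higher.

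The median log2 fold change of the 54 genes was -0.45 in WT, -0.30 in Fpr2-KO and -0.38 averaged. Over all tested genes the medians were 0.00, 0.02 and 0.01. In 28 of the 54 genes, or 51.9%, all 4 SuHx libraries lay below all 4 control libraries, against 13.6% of all tested genes. All 4 SuHx libraries lay above all 4 control libraries in 1 gene of the set, Eif4e, against 15.6% of all tested genes. The log2 fold change was below 0 in both genotypes for 45 of the 54 genes, or 83.3%, against 34.5% of all tested genes. The background of all tested genes was not matched to the set for expression level, on which calls and separation can depend. The 8 genes called lower in both were Eif1, Eif3a, Eif3c, Eif3e, Eif3g, Eif4a1, Eif4a2 and Eif4ebp1. They are 34.8% of those called lower in WT and 66.7% of those called lower in Fpr2-KO. The same overlap over all tested genes was not counted, so these shares have no background beside them. The WT and Fpr2-KO comparisons share no library. Both tests take the spread from 1 fit of all 8 libraries, so their calls are not independent.

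The WT count rested partly on the SuHx libraries. It was 10 without WT SuHx 1 and 12 without WT SuHx 3, of 24 in all, and 9 genes were called under all 14 alternatives: Eif4e, Eif1, Eif2a, Eif3c, Eif3e, Eif3g, Eif4a2, Eif4b and Eif4ebp1. The Fpr2-KO count of 13 was 0 without Fpr2-KO control 3 or without Fpr2-KO SuHx 2, and 4 without Fpr2-KO SuHx 3, WT SuHx 1 or WT SuHx 3. Averaged over genotypes the count stayed between 26 and 34 with any 1 library left out. Every called gene kept its sign in these 3 comparisons under every alternative.

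**Figure D1:**
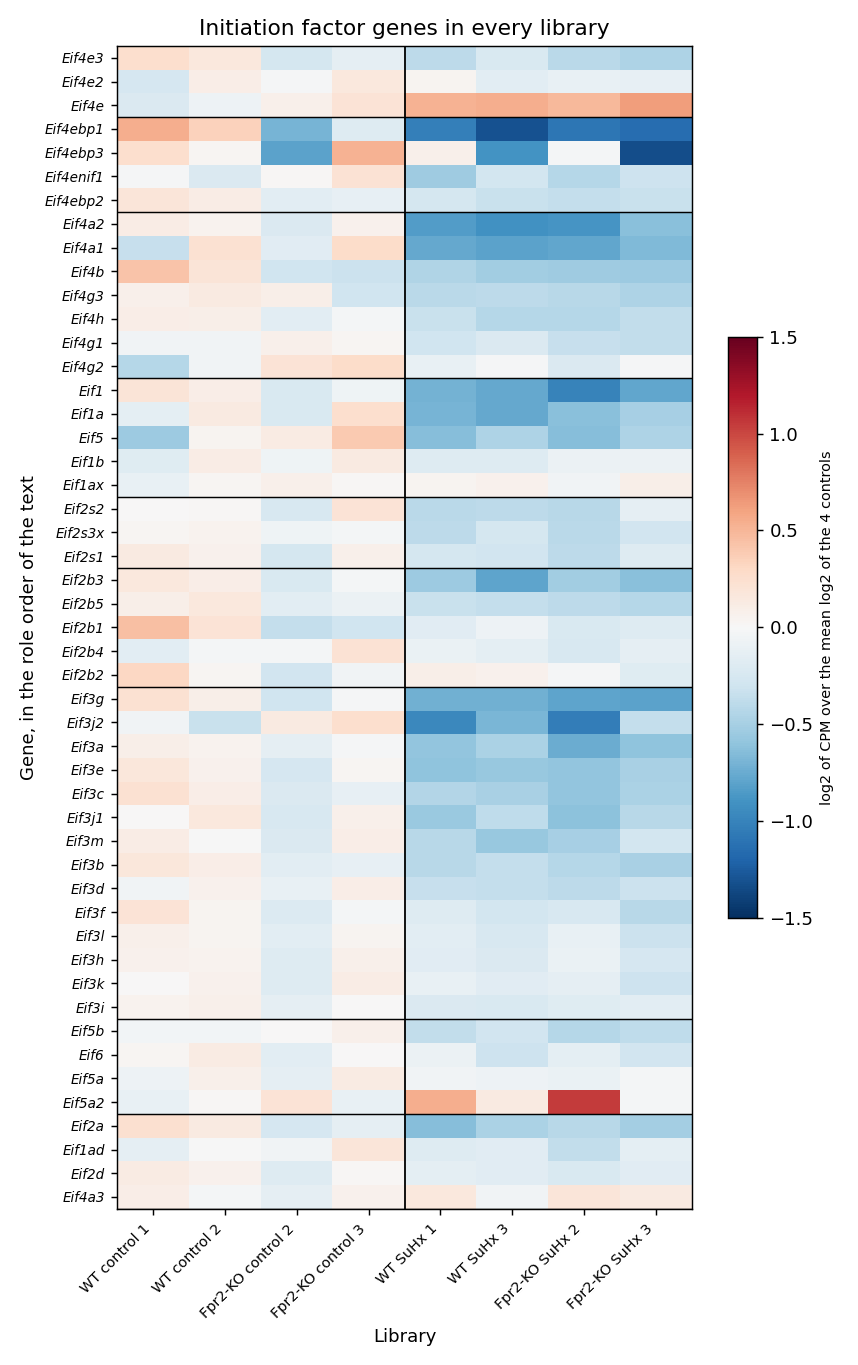
Level of each tested initiation factor gene that is not a pseudogene (rows, in the order of their roles) in each of the 8 libraries (columns), as log2 CPM minus the mean log2 CPM of the 4 control libraries. The 4 SuHx columns on the right are mostly blue, with Eif4e red in all 4.

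The cap-binding gene Eif4e (ENSMUSG00000028156, mm10 chromosome 3, 138526179 to 138559696, plus strand) was the 1 gene of the set that rose. Its level was 76.8 and 84.7 CPM in WT control and 128 and 130.3 in WT SuHx. In Fpr2-KO it was 93.8 and 103 in control and 125 and 138 in SuHx. Both SuHx libraries lay above both controls in each genotype. By edgeR's quasi-likelihood test, the log2 fold change was 0.68 ± 0.10 (standard error) in WT, a 1.6-fold rise (adjusted p = 0.00348), and 0.41 ± 0.10 in Fpr2-KO, a 1.33-fold rise (adjusted p = 0.0376). The call in WT was made under all 14 alternatives and that in Fpr2-KO under 6 of them.

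Neither paralog of Eif4e was called higher. Eif4e3, an atypical cap-binding paralog, had 85.8 and 80.2 CPM in WT control and 54.7 and 61.3 in WT SuHx, with no overlap. It fell by 0.52 ± 0.10 on the log2 scale in WT (edgeR, adjusted p = 0.0106), while in Fpr2-KO its change of -0.24 was not called (edgeR, adjusted p = 0.183). Eif4e2, which encodes the repressor 4EHP, had a change of 0.01 in WT and -0.20 in Fpr2-KO, and was not called in either. Its WT groups overlapped, and in Fpr2-KO both SuHx libraries (35.0 and 34.8 CPM) lay below both controls (37.6 and 42.5). Eif4e3 shares 14.8% of its exon bases with another gene on its strand, which averaged 42.9 counts.

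Of the 4 genes of eIF4E inhibitors, 3 fell averaged over genotypes. In WT and averaged over genotypes, the steepest fall of any called gene of the set was that of Eif4ebp1 (ENSMUSG00000031490, mm10 chromosome 8, 27260329 to 27276674, plus strand), which encodes the best-known mTORC1-controlled binding protein of eIF4E. It had 134 and 117 CPM in WT control and 45.2 and 37.0 in WT SuHx. In Fpr2-KO it had 56.5 and 80.0 in control and 43.2 and 41.4 in SuHx. The 4 SuHx libraries sat close together, and the controls differed between genotypes. The log2 fold change was -1.61 ± 0.17 in WT, 3.06-fold lower (edgeR, adjusted p = 0.00106), and -0.69 ± 0.17 in Fpr2-KO, 1.61-fold lower (edgeR, adjusted p = 0.0390). The call in WT was made under all 14 alternatives. That in Fpr2-KO was made under 7 of them, with changes from -0.92 to -0.42.

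Eif4ebp2, the second binding protein, had 127 and 121 CPM in WT control and 93.1 and 88.8 in WT SuHx, with 100.2 and 103 in Fpr2-KO control and 87.7 and 89.2 in Fpr2-KO SuHx. All SuHx libraries lay below all controls. It fell by 0.44 ± 0.09 on the log2 scale in WT (edgeR, adjusted p = 0.00973) and by 0.32 ± 0.06 averaged (edgeR, adjusted p = 0.00589). Eif4enif1, whose product 4E-T carries eIF4E into the nucleus and to P-bodies, fell by 0.38 ± 0.09 averaged (edgeR, adjusted p = 0.0159). Eif4ebp3 stayed at 0.149 to 0.540 CPM in every library and was not called. It shares 67.3% of its exon bases with a readthrough gene on the same strand, so its counts are uncertain.

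Set per length, as CPM per kilobase of annotated exon, the Eif4e level was below that of its 3 binding protein genes in sum in every library. The length counts every annotated exon base (6008 for Eif4e, 2196 for Eif4ebp1 and 5784 for Eif4ebp2), not the transcripts expressed here. Which gene ranks higher therefore depends on the annotation. The ratio of Eif4e to the summed Eif4ebp1, Eif4ebp2 and Eif4ebp3 levels was 0.153 and 0.188 in WT control and 0.571 and 0.668 in WT SuHx. In Fpr2-KO it was 0.360 and 0.313 in control and 0.589 and 0.665 in SuHx. SuHx libraries lay above controls in both genotypes, and the Fpr2-KO controls lay between the WT controls and the SuHx libraries. Eif4e made up 26.2% ± 1.72 (SD, n = 2) of the summed per-length level of Eif4e, Eif4e2 and Eif4e3 in WT control, 43.5% ± 0.823 in WT SuHx, 35.1% ± 0.0042 in Fpr2-KO control and 45.8% ± 2.29 in Fpr2-KO SuHx. These ratios describe transcripts, not proteins or their phosphorylation, and no test was run on them.

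**Figure D2:**
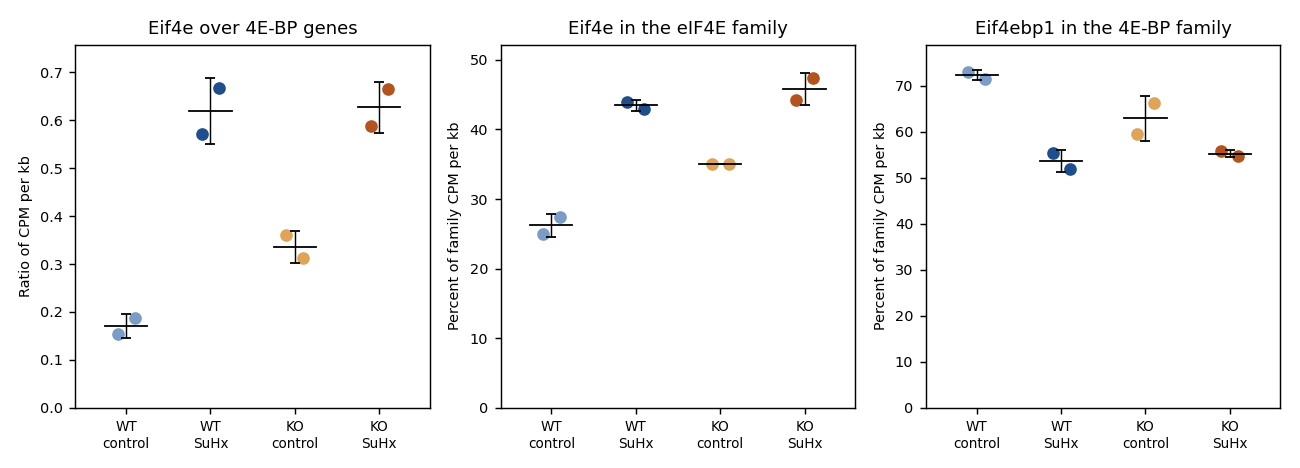
Ratio of Eif4e to its binding protein genes (left), share of Eif4e in the Eif4e, Eif4e2 and Eif4e3 total (middle) and share of Eif4ebp1 in the Eif4ebp1, Eif4ebp2 and Eif4ebp3 total (right), all from CPM per kilobase of exon. Points are libraries, lines are group means and bars are SD with n = 2. The left ratio averages 0.171 in WT control and 0.619 in WT SuHx.

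Of the 7 genes of the rest of eIF4F and its helpers, 6 fell averaged over genotypes, 5 in WT and 3 in Fpr2-KO, and 0 rose. Eif4a2, which encodes the second of the paired eIF4A helicases and made up 68.7% to 77.8% of the per-length level of Eif4a1 and Eif4a2, had 737 and 710.3 CPM in WT control and 383 and 365 in WT SuHx. Its Fpr2-KO levels were 586 and 712 in control and 371 and 444 in SuHx, again with no overlap. It fell by 0.95 ± 0.12 on the log2 scale in WT (edgeR, adjusted p = 0.00196) and by 0.67 ± 0.12 in Fpr2-KO (edgeR, adjusted p = 0.0158).

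Eif4a1, the other cytoplasmic helicase gene, varied more among controls. It had 171 and 255 CPM in WT control, 128 and 125 in WT SuHx, 194 and 264 in Fpr2-KO control and 127 and 137 in Fpr2-KO SuHx. All SuHx libraries lay below all controls. Its log2 fold change was -0.75 ± 0.20 in WT and -0.79 ± 0.20 in Fpr2-KO (edgeR, adjusted p = 0.0321 and 0.0417). The processed pseudogene Eif4a-ps4 followed at a ratio of 0.258 to 0.314 of the Eif4a1 counts in every library, so reads of these near-identical copies may have been split between them.

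Eif4b, whose product stimulates the eIF4A helicase, was highest in WT control, with 344 and 293 CPM, and had 187 and 178 in WT SuHx. Its Fpr2-KO levels were 209 and 205 in control and 177 and 176 in SuHx. The WT controls stood above the other 6 libraries. It fell by 0.80 ± 0.10 on the log2 scale in WT (edgeR, adjusted p = 0.00169), and its change of -0.23 ± 0.10 in Fpr2-KO was not called (edgeR, adjusted p = 0.180). Eif4h, the second such helper, fell by 0.48 ± 0.09 in WT (edgeR, adjusted p = 0.00884).

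Among the scaffolds, Eif4g1 had 387 and 386 CPM in WT control, 325 and 343 in WT SuHx, 421 and 407 in Fpr2-KO control and 316 and 309 in Fpr2-KO SuHx. SuHx lay below control in both genotypes, and the fall was called in Fpr2-KO (-0.41 ± 0.08, edgeR, adjusted p = 0.0224) but not in WT (-0.21 ± 0.08, edgeR, adjusted p = 0.110). Its paralog Eif4g3 fell by 0.50 ± 0.13 on the log2 scale in WT (edgeR, adjusted p = 0.0273). Eif4g2, which encodes the DAP5 scaffold that lacks the eIF4E-binding site, was the 1 gene of the 7 that was not called in any SuHx comparison. It had 664 and 863 CPM in WT control, 832 and 888 in WT SuHx, 1036 and 1089 in Fpr2-KO control and 772 and 888 in Fpr2-KO SuHx.

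**Figure D3:**
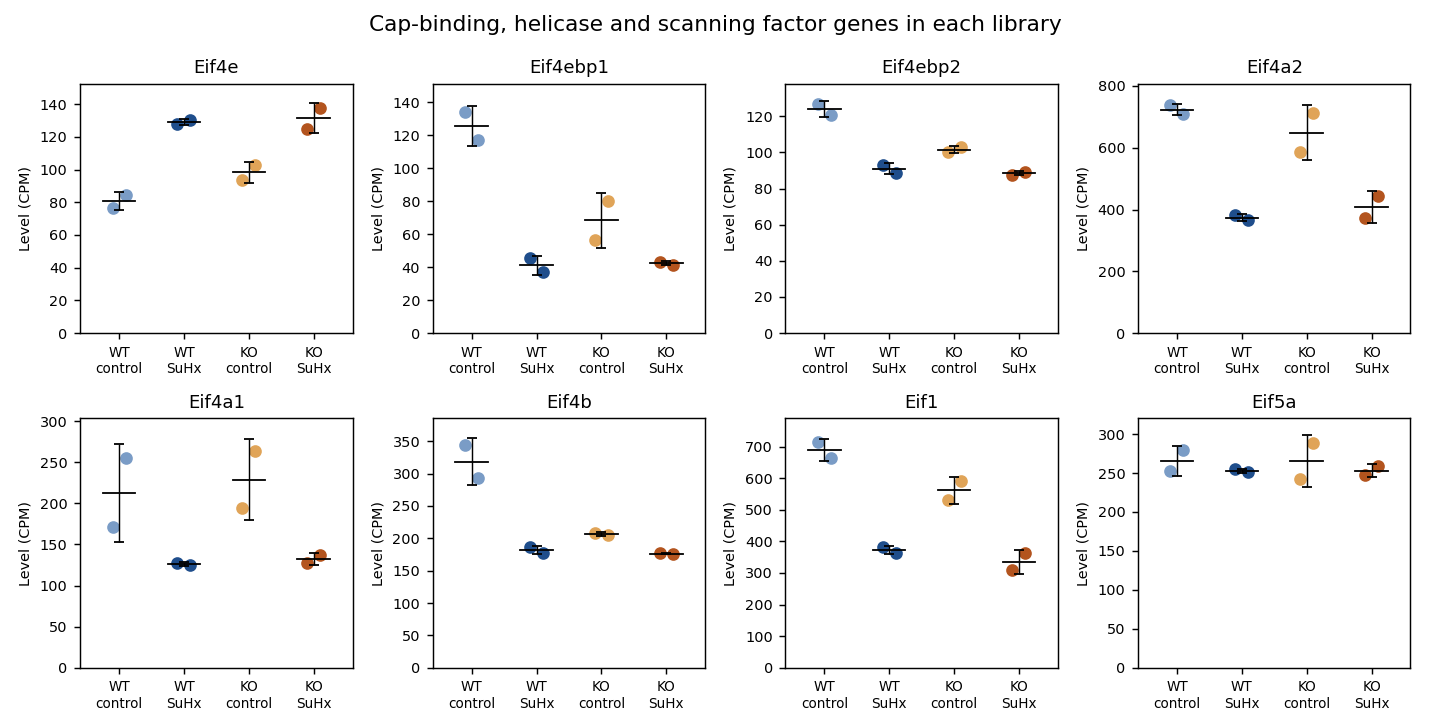
CPM of 8 initiation factor genes in each library (points), with group means (lines) and SD (bars, n = 2). Eif4e is higher and Eif4ebp1, Eif4ebp2, Eif4a2, Eif4a1, Eif4b and Eif1 are lower in all 4 SuHx libraries than in all 4 controls, while Eif5a stays between 242 and 289 CPM.

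The cap-binding complex genes were also set side by side by their promoter sequence, since Eif4e went up while Eif4a1 and Eif4g1 went down. RefSeq promoters (GRCm38.p6, 250 bases before to 50 after a start) were found for 39 of the 59 genes, 51 promoters in all. The E-box CACGTG, the letters bound by MYC, USF and related factors, lay in 12 of the 51, or 23.5%, against 7.2% of all 32851 promoters. Among the genes called lower over both genotypes it lay in 5 of 28 promoters (24 genes), or 17.9%. Among those not called it lay in 6 of 20 promoters (13 genes), or 30.0%. Starts of 1 gene were counted separately. Several starts of Eif5a, which was not called, held the motif in windows that partly overlap, so these shares do not count separate genes. The motif reads the same on both strands, and a match of letters is not a shown binding site. The following lines give the 250 bases upstream of a start of Eif4e (the second of its starts, chr3:138527018-138527267, plus strand), Eif4a1 (chr11:69672424-69672673, minus strand) and Eif4g1 (chr16:20672477-20672726, plus strand), 5′ to 3′, with CACGTG in capitals.
Eif4e: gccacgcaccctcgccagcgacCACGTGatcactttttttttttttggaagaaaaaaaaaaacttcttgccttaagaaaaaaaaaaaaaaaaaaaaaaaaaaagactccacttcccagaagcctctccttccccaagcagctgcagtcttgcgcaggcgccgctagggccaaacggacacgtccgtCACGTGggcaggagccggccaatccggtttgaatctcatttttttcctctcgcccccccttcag
Eif4a1: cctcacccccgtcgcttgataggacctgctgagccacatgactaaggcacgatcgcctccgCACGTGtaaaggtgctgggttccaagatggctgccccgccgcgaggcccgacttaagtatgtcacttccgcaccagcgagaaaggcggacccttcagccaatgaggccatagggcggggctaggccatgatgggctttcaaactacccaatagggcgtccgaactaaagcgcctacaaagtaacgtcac
Eif4g1: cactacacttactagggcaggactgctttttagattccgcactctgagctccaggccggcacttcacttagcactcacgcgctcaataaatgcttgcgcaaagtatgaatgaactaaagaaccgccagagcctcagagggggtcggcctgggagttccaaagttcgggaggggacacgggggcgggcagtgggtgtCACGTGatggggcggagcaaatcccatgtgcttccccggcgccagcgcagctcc

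The Eif4g1 start used here lies 4414 bases inside the gene bounds of the deposited table, and the Eif4e start 1089 bases inside. Which starts are used in these libraries was not tested. In the windows shown CACGTG starts at -228 and -64 from the Eif4e start, at -189 from that of Eif4a1 and at -54 from that of Eif4g1. The E-box was thus present in a gene that rose and in genes that fell. The first Eif4e start held none. The starts of Eif4a2, Eif4b and Eif4g3 held none either, though these genes also fell averaged over genotypes. That of Eif4h, which fell too, held 1. Eif4ebp1 is not in the promoter table. The core of the ATF4 element (TGATG, any base, then AA, on either strand) was in 1 of the 51 promoters, or 2.0%, against 4.0% of all.

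Genes of start codon selection were led by Eif1, whose product keeps the scanning ribosome open and rejects poor start codons. Eif1 had 713 and 664 CPM in WT control and 381 and 364 in WT SuHx, with 531 and 592 in Fpr2-KO control and 309 and 363 in Fpr2-KO SuHx. No SuHx library reached a control library. It fell by 0.89 ± 0.11 on the log2 scale in WT and by 0.74 ± 0.11 in Fpr2-KO (edgeR, adjusted p = 0.00161 and 0.00774). Eif1a, a gene of eIF1A, had 22.5 and 27.3 CPM in WT control and 15.4 and 14.6 in WT SuHx. In Fpr2-KO it had 21.3 and 29.6 in control and 16.2 and 17.7 in SuHx. It fell by 0.73 ± 0.18 in WT (edgeR, adjusted p = 0.0208), whereas its X-linked counterpart Eif1ax stayed at 52.4 to 60.1 CPM in every library and was not called. The Eif1 paralog Eif1b, at 23.8 to 29.9 CPM, was not called either.

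Eif5, which encodes the GTPase activator of eIF2, had 155 and 233 CPM in WT control, 145 and 164 in WT SuHx, 246 and 297 in Fpr2-KO control and 146 and 165 in Fpr2-KO SuHx. The WT groups overlapped and the Fpr2-KO groups did not. It fell in Fpr2-KO by 0.80 ± 0.19 on the log2 scale (edgeR, adjusted p = 0.0338), and its WT change of -0.33 ± 0.19 was not called (edgeR, adjusted p = 0.258). The difference between these changes, -0.47 ± 0.27, was not called (edgeR, adjusted p = 0.505).

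The 3 genes of the eIF2 trimer fell averaged over genotypes, a call that held under all 14 alternatives for Eif2s3x but under 5 for Eif2s1 and 6 for Eif2s2. Eif2s1, which encodes the alpha subunit that stress kinases phosphorylate, had a log2 fold change of -0.29 ± 0.09, Eif2s2 (beta) of -0.34 ± 0.11 and Eif2s3x (gamma, X-linked) of -0.33 ± 0.07 (edgeR, adjusted p = 0.0471, 0.0423 and 0.00682). Their summed level was 263 and 265 CPM in WT control, 198 and 208 in WT SuHx, 232 and 267 in Fpr2-KO control and 193 and 219 in Fpr2-KO SuHx. Controls and SuHx libraries did not overlap in this sum. In WT alone Eif2s3x was called, and in Fpr2-KO alone none of the 3 was.

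For eIF2B, the exchange factor that reloads eIF2 with GTP, 3 of 5 subunit genes fell in WT and 2 averaged over genotypes. Eif2b3 had 19.3 and 18.5 CPM in WT control and 11.8 and 9.94 in WT SuHx, and 14.7 and 16.9 in Fpr2-KO control and 12 and 11.2 in Fpr2-KO SuHx. The SuHx libraries lay below the controls in both genotypes. It fell by 0.80 ± 0.14 on the log2 scale in WT (edgeR, adjusted p = 0.00676). Eif2b5, the catalytic subunit gene, fell by 0.47 ± 0.09 in WT (edgeR, adjusted p = 0.00890).

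Eif2b1, a regulatory subunit gene, was called lower with SuHx in WT and was not called in Fpr2-KO. It had 36.5 and 30.8 CPM in WT control, 23.7 and 25.3 in WT SuHx, 20.7 and 21.6 in Fpr2-KO control and 22.7 and 23.3 in Fpr2-KO SuHx. The WT controls lay above the other 6 libraries. In Fpr2-KO both SuHx libraries lay above both controls, and such separation in opposite directions in the 2 genotypes was seen in 1 of the 54 genes and in 5.28% of all tested genes. The log2 fold change was -0.46 ± 0.12 in WT (edgeR, adjusted p = 0.0293) and 0.12 ± 0.12 in Fpr2-KO (edgeR, adjusted p = 0.582), and the difference between them, 0.57 ± 0.17, was not called (edgeR, adjusted p = 0.238). Eif2b2 and Eif2b4 were not called in any comparison.

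The scaffold eIF3 contributed the largest group. All 14 of its subunit genes had log2 fold changes below 0 in both genotypes, and 10 fell averaged over them, with 8 in WT and 5 in Fpr2-KO. Their summed level was 1592 and 1535 CPM in WT control and 1118 and 1115 in WT SuHx. In Fpr2-KO it was 1289 and 1483 in control and 1087 and 1102 in SuHx. All SuHx libraries were below all controls, and WT control was the highest group. The median log2 fold change of the 14 was -0.54 in WT, -0.34 in Fpr2-KO and -0.43 averaged.

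Eif3g, whose product takes part in scanning, fell furthest among the eIF3 genes in WT. It had 85.9 and 78.0 CPM in WT control, 44.5 and 44.7 in WT SuHx, 59.9 and 72.6 in Fpr2-KO control and 42.6 and 42.0 in Fpr2-KO SuHx, so the SuHx libraries nearly coincided. The log2 fold change was -0.88 ± 0.12 in WT and -0.65 ± 0.12 in Fpr2-KO (edgeR, adjusted p = 0.00197 and 0.0138). Eif3a, the largest core subunit, had 191 and 186 CPM in WT control, 119 and 129 in WT SuHx, 164 and 178 in Fpr2-KO control and 107 and 118 in Fpr2-KO SuHx. It fell by 0.60 ± 0.10 in both genotypes (edgeR, adjusted p = 0.00470 and 0.0107).

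The core subunit genes Eif3c and Eif3e were called in both genotypes, with log2 fold changes of -0.62 and -0.69 in WT and -0.37 and -0.44 in Fpr2-KO. Eif3b, Eif3d, Eif3j1 and Eif3m were called in WT and averaged over genotypes, and Eif3f averaged only. Eif3h, Eif3i, Eif3k and Eif3l were not called in any SuHx comparison, with averaged changes of -0.19 to -0.21. Eif3j2 had 20.2 and 16.7 CPM in WT control, 10.7 and 13.0 in WT SuHx, 23.0 and 24.9 in Fpr2-KO control and 10.2 and 16.4 in Fpr2-KO SuHx, and was called in Fpr2-KO (-0.85 ± 0.22, edgeR, adjusted p = 0.0459). It is a near-identical copy of Eif3j1 at 0.134 to 0.243 of its counts, so how reads divide between them is uncertain. Eif3d overlaps an antisense gene over 43.3% of its exon bases, though that gene averaged 32.2 counts.

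**Figure D4:**
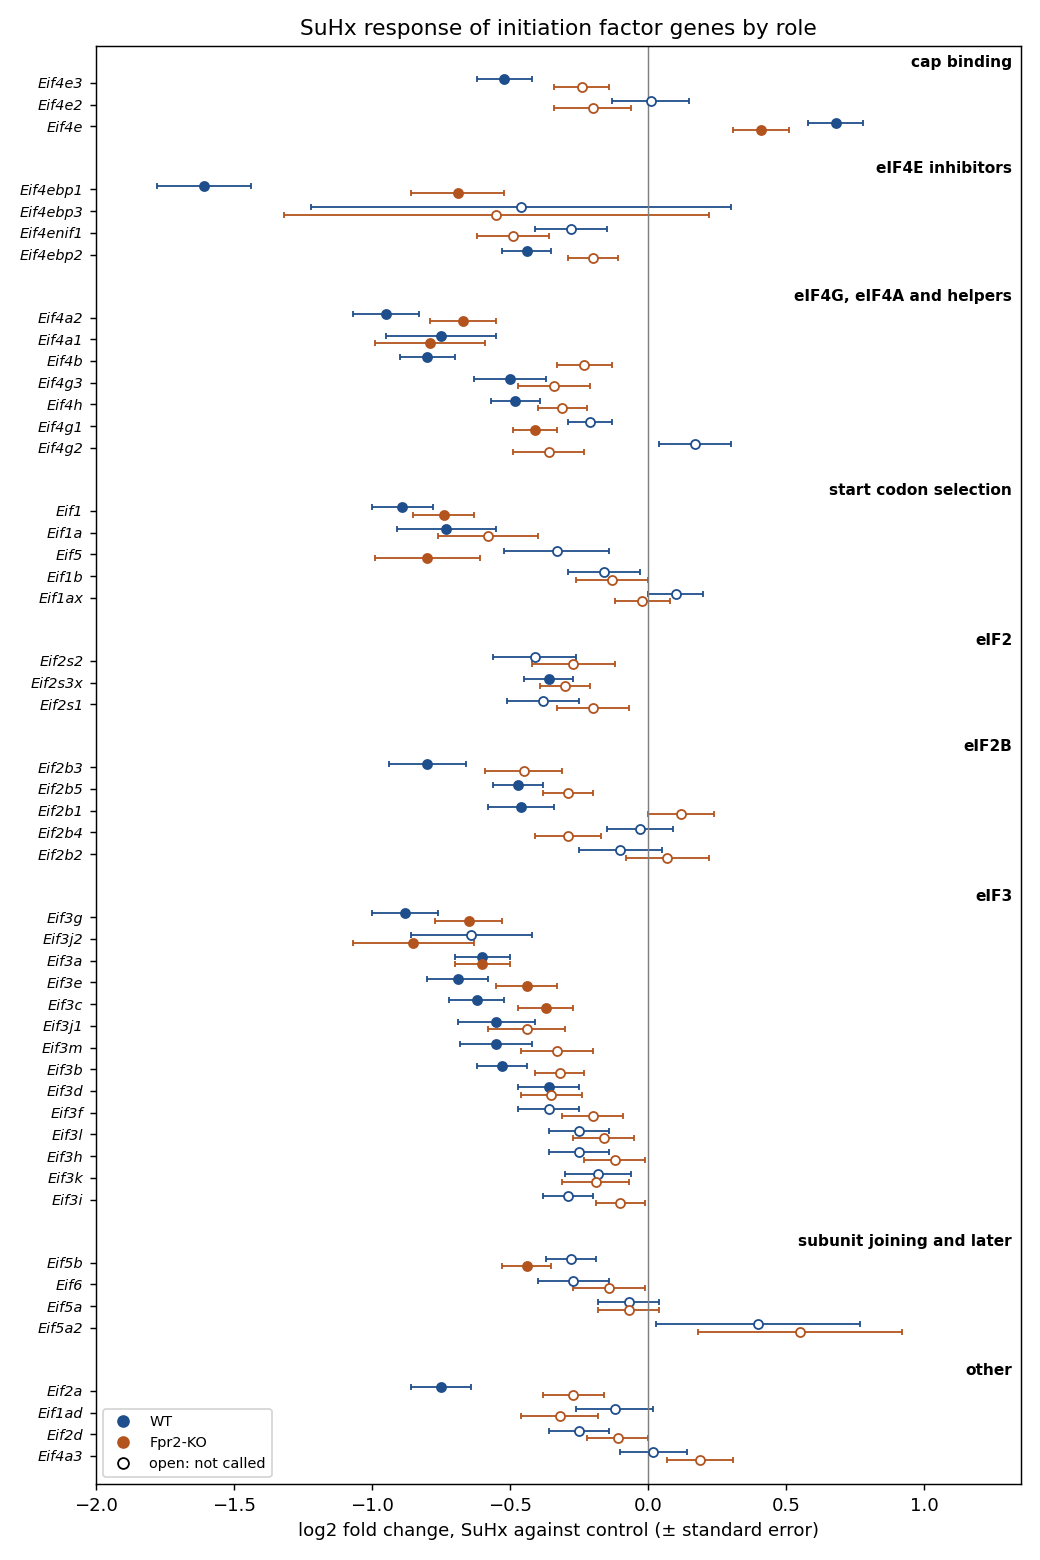
Log2 fold change of SuHx against control (points) with standard error (bars) in WT and Fpr2-KO for the 49 tested genes that are not pseudogenes, grouped by role. Filled points have an adjusted p under 0.05 (edgeR). Eif4e is the 1 filled point right of 0 in each genotype, and all 14 eIF3 genes lie left of 0 in both.

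Of the later factors, Eif5b, the GTPase that joins the large subunit, had 79.3 and 79.2 CPM in WT control, 63.2 and 66.9 in WT SuHx, 82.0 and 86.1 in Fpr2-KO control and 60.6 and 62.9 in Fpr2-KO SuHx. SuHx was below control in both genotypes, and the fall was called in Fpr2-KO (-0.44 ± 0.09, edgeR, adjusted p = 0.0208) and averaged (-0.36 ± 0.06, edgeR, adjusted p = 0.00382). Of its exon bases 16.8% overlap Rev1 on the opposite strand, so part of its counts is uncertain. Eif5a, whose hypusine-bearing product assists elongation and termination, had 242 to 289 CPM in control and 247 to 259 in SuHx. The SuHx range lay inside the control range, and its averaged change of -0.07 ± 0.08 was not called (edgeR, adjusted p = 0.551). Its paralog Eif5a2 stayed at 2.16 to 4.82 CPM, with its highest level in Fpr2-KO SuHx 2, and Eif6, the anti-association factor gene, at 20.1 to 27.1 CPM. Neither was called.

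Of the remaining genes, Eif2a, which encodes an alternative initiator tRNA carrier distinct from eIF2 alpha, had 73.0 and 67.9 CPM in WT control and 39.5 and 44.3 in WT SuHx. In Fpr2-KO it had 52.0 and 56.4 in control and 46.4 and 43.4 in SuHx. SuHx lay below control in each genotype, most clearly in WT. It fell by 0.75 ± 0.11 on the log2 scale in WT (edgeR, adjusted p = 0.00274), and its Fpr2-KO change of -0.27 ± 0.11 was not called (edgeR, adjusted p = 0.143). Eif1ad, Eif2d and Eif4a3, the exon junction helicase gene, were not called. Of the 5 tested pseudogenes, Eif4a-ps4 fell averaged over genotypes (-0.70 ± 0.16, edgeR, adjusted p = 0.0141), and the other 4 stayed at 0.986 CPM or less. Eif4a-ps4 had 44.1 and 73.6 CPM in WT control and 36.0 and 38.8 in WT SuHx. In Fpr2-KO it had 55.3 and 72.6 in control and 39.7 and 37.0 in SuHx.

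A run of pyrimidines after a first C, the mark of messages whose translation follows mTORC1, began 2 of the 51 promoters' transcripts, or 3.9%, against 2.5% of all promoters (a C at the RefSeq start and at least 5 pyrimidines in all). They are shown because both genes fell averaged over genotypes, as did 24 of the 39 genes with a promoter. The first 25 transcribed bases of Eif3f (chr7:108934415-108934439, plus strand) and Eif2s3x (chrX:94212627-94212651, minus strand) follow, with the pyrimidine run in capitals.
Eif3f: CTCTCTTTCTCggcaagatggcttc
Eif2s3x: CTTTTCTCTCCgagcaagatggctg

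Loss of Fpr2 was compared at rest and under SuHx. In control mice, 3 of the 54 genes were lower in Fpr2-KO than in WT and 0 higher, while 2.6% of all tested genes were called, 1.18% as lower and 1.43% as higher. They were Eif4ebp1 (-0.88 ± 0.17), Eif2b1 (-0.67 ± 0.12) and Eif4b (-0.62 ± 0.10), with adjusted p = 0.0364, 0.0311 and 0.0248 by edgeR. In each of the 3 both Fpr2-KO controls lay below both WT controls, at the levels given above. These calls were not firm: the count of 3 was 0 without WT control 1, either WT SuHx library or either Fpr2-KO control library, 1 without either Fpr2-KO SuHx library, and 5 without WT control 2. The median log2 fold change of the 54 genes was -0.13, against 0.00 over all tested genes.

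In SuHx mice 0 of the 54 genes differed between genotypes by edgeR, with 0.0% of all genes called, and 0 had an unadjusted p under 0.05, against 3.48% of all genes. The difference of the SuHx response between genotypes was called by edgeR for 0 of the 54 genes and for 0.0% of all genes. Of the 54, 5 had an unadjusted p under 0.05 for it, or 9.26%, against 12.7% of all genes, so the set did not exceed the background. They were Eif4ebp1, Eif4b, Eif2b1 and Eif2a, whose log2 fold changes were higher in Fpr2-KO than in WT, and Eif4g2 in the opposite direction. For Eif4ebp1 the difference was 0.92 ± 0.24 (edgeR, adjusted p = 0.197), and for Eif4b it was 0.57 ± 0.14 (edgeR, adjusted p = 0.187). DESeq2 called both, with adjusted p = 0.0165 and 0.0401, and no other gene of the 54, against 3.68% of all genes to which it gave an adjusted p. Genotype averaged over both treatments was called by edgeR for 0 genes of the 54 and 0.0% of all, with 11 of the 54, or 20.4%, at an unadjusted p under 0.05, against 14.4% of all genes. DESeq2 called 3 of the 54 for it, against 3.86% of all genes with an adjusted p from it. By edgeR, the genes that fell in WT alone or in Fpr2-KO alone are thus not shown to respond differently, and of them DESeq2 called Eif4b.

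Regulators around the initiation factors were read from lists of other translation genes, averaged over genotypes unless stated, where 14.1% of all tested genes were lower and 15.5% higher. Of 8 genes of eIF2 alpha kinases and their phosphatase, 4 fell and 1 rose. Ppp1r15a, which encodes the stress-induced phosphatase subunit GADD34, had 75.7 and 57.9 CPM in WT control, 17.5 and 13.0 in WT SuHx, 38.4 and 55.3 in Fpr2-KO control and 19.0 and 16.5 in Fpr2-KO SuHx. The groups were far apart, and it fell by 2.13 ± 0.23 on the log2 scale in WT and by 1.40 ± 0.22 in Fpr2-KO (edgeR, adjusted p = 0.00107 and 0.0102). The GCN2 regulators Impact (-1.23 ± 0.23) and Gcn1 (-0.46 ± 0.09) fell, as did the constitutive phosphatase subunit gene Ppp1r15b (-0.40 ± 0.10). Eif2ak2, the gene of the RNA-activated kinase PKR, rose by 0.61 ± 0.15 (edgeR, adjusted p = 0.0155), and the genes of the other 3 kinases were not called. In WT alone 3 of the 8 fell and in Fpr2-KO alone 2.

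Of 20 genes of the mTORC1 arm and the eIF4E kinases (Mknk1 and Mknk2), 7 fell and 0 rose. Mtor itself had a change of -0.15 that was not called. Mknk2, whose kinase phosphorylates eIF4E, fell by 0.75 ± 0.10 on the log2 scale, and Tsc1, a brake on mTORC1, by 0.56 ± 0.09 (edgeR, adjusted p = 0.000967 and 0.00235). The ribosomal protein gene Rps6, the S6 kinase gene Rps6kb1 and Rheb, an mTORC1 activator, fell by 0.49, 0.34 and 0.34. Activators and inhibitors were thus both among those that fell. In WT alone 4 fell and 1 rose, and in Fpr2-KO alone 2 fell. Sesn1, an inhibitor of mTORC1, was lower in Fpr2-KO than in WT controls by a log2 fold change of -1.85 (edgeR, adjusted p = 0.0241), with WT control at 317 ± 113 CPM (SD, n = 2) and Fpr2-KO control at 87.6 ± 10.7. The SuHx groups were alike, at 151 ± 35.0 CPM in WT and 153 ± 16.6 in Fpr2-KO. With SuHx, Sesn1 fell in WT (-1.07 ± 0.26, edgeR, adjusted p = 0.0275). Its change of 0.80 ± 0.26 in Fpr2-KO was not called (edgeR, adjusted p = 0.0961).

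Of 14 genes in a mixed list of poly(A)-binding proteins, eIF4A regulators and other translation regulators, 4 fell and 2 rose. Ddx3x, a helicase gene for structured leaders, fell by 1.01 ± 0.09 and Pabpc1, the cytoplasmic poly(A)-binding protein gene, by 0.34 ± 0.08, while Pdcd4, the gene of an eIF4A inhibitor, rose by 0.67 ± 0.14 (edgeR, adjusted p = 0.00029, 0.0160 and 0.00807). Of 13 genes of elongation and termination, 6 fell and 0 rose, among them Eef2 (-0.39 ± 0.08) and Eef2k (-0.58 ± 0.11), the elongation factor gene and that of its inhibitory kinase. Of 9 mitochondrial translation factor genes, 4 rose and 0 fell: Tsfm (0.73 ± 0.10), Mtif2 (0.53 ± 0.09), Tufm (0.43 ± 0.07) and Mrrf (0.33 ± 0.08). Among these 5 lists, that of the mitochondrial factors was the 1 with more genes higher than lower.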

How the data were processed

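RNA sequencing of 8 right ventricle libraries was analysed from 1 deposited table. The authors deposited whole-number counts per gene, with no normalization. A further 8 columns of per-sample values were not used. Tools and build named per the submitters' processing notes are edgeR, DESeq2, StringTie 2.1.6, HISAT2 2.2.1, cutadapt 1.9 and mm10. The strand setting of the counting is not given in the sources used here, so overlapping genes are uncertain. Samples were grouped by title. Separate animals within a group are not stated in the labels. The p-values therefore measure only how much these samples vary, and that variation may be technical. Libraries of a group were not duplicates (chi-square per degree of freedom 23.8 to 77.7).

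The test of the counts was run in R 4.3.3 with edgeR 4.0.16: filterByExpr by group left 19083 genes, libraries were scaled by TMM, and all 8 entered 1 quasi-likelihood fit with 4 group means and 4 residual degrees of freedom. The coefficient of variation was 25.1%. Tests were two-sided, adjusted by Benjamini and Hochberg over all tested genes, in 7 comparisons. Levels are CPM, divided for ratios between genes by the number of bases in any annotated exon of GENCODE M21. The standard error of a log2 fold change comes from the F statistic. The scripts were tested on simulated data for SuHx against control in WT. They called 8.96% of genes changed 1.5-fold, 44.8% of those changed 2-fold and 77.3% of those changed 4-fold. Far fewer genes were changed there than were called in the data, so these shares do not carry over directly. A gene that was not called is not shown to be unchanged. Members and gene lists were chosen with earlier results of these data known. Values are given in every library for called genes with the largest changes and a mean of at least 5 CPM (up to 8 each way per comparison), and for further genes of a role chosen after their values were seen. Exon overlaps come from the same release, which holds all 59 genes. Alternatives were other scaling, no filter, DESeq2 1.42.0, no mitochondrially coded genes, a replicate block, each library left out, and WT control 1 and Fpr2-KO SuHx 2 left out together, the last chosen after seeing the data. Precision is set by 2 libraries per group rather than by depth.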

Additional observations from a re-analysis of the deposited data

Results flagged for a closer look

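Eif2b1 was the 1 gene of the set in which the libraries of both genotypes separated in opposite directions, 1 of 54, while 5.28% of all tested genes did so. Both WT SuHx libraries lay below both WT controls, and both Fpr2-KO SuHx libraries lay above both Fpr2-KO controls. The difference between the genotypes' log2 fold changes was 0.57 ± 0.17 and did not pass the threshold (edgeR, adjusted p = 0.238, interaction term). The Fpr2-KO levels, 20.7 and 21.6 CPM in control and 22.7 and 23.3 in SuHx, span a narrow range.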

How the results depend on the processing

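In the settings below the number of called initiation factor genes, the number of all genes called (in brackets) or both moved by over 1.5 times. With the replicate block, SuHx in Fpr2-KO gave 6 (1164), the genotype difference in control mice 0 (9), that in SuHx mice 0 (1), and genotype averaged 0 (2). The numbers pair no animals in the labels, and the deviations of the same-numbered Fpr2-KO libraries correlated at 0.001 over 19083 genes. Without WT control 1 and Fpr2-KO SuHx 2 together, SuHx in WT gave 17 (2233), SuHx in Fpr2-KO 2 (937), the genotype difference in control 0 (43), that in SuHx 0 (3), the interaction 0 (2) and genotype averaged 0 (5). DESeq2 gave 5 (1787) for Fpr2-KO against WT in control, 0 (17) in SuHx, 2 (512) for the interaction and 3 (624) for genotype averaged. With no filter on low counts the interaction gave 0 (12) and genotype averaged 0 (13). The causes were not tested.

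With 1 library left out, initiation factor genes called ranged from 10 to 26 for SuHx in WT (1328 to 4289 of all genes), 0 to 18 for SuHx in Fpr2-KO (290 to 3051) and 26 to 34 averaged (3498 to 5844). They ranged from 0 to 5 for Fpr2-KO against WT in control (0 to 2370), stayed at 0 in SuHx (0 to 5), and ranged from 0 to 2 for the interaction (0 to 756) and 0 to 3 for genotype averaged (0 to 1189). The count of 2 and that of 3 came without WT control 2. A group left with 1 library is assumed to vary like the others. Of the averaged calls, Eif4e and 24 of the 31 lower genes were called under all 14 alternatives. No result reversed.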
